A study of Mus musculus with 14 samples.

Results

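The transcripts of 38 genes that make, break down and read out cyclic AMP (cAMP) were followed in the suprachiasmatic nucleus (SCN), the hypothalamic clock, of Vipr2-/- and wild-type (WT) mice. They were taken by gene symbol from a deposited table of 55401 genes, as the pathway downstream of VPAC2, the receptor that Vipr2 encodes. They comprise 10 Gs subunits and adenylyl cyclases, 6 subunits of protein kinase A (PKA), 9 phosphodiesterases, 3 CREB family factors, 5 coactivators, 3 salt-inducible kinases (SIKs) and 2 Epac factors. All 38 passed the filter on low values that left 18175 genes for testing. Total RNA of laser-cut SCN was sequenced in 14 libraries of 4 groups on a C57BL/6 background: 3 Vipr2-/- SVE, 3 Vipr2-/- nSVE, 4 WT SVE and 4 WT nSVE. SVE is scheduled voluntary exercise, a running wheel that was open for 6 h in every 24 h. nSVE mice free-ran in darkness without that schedule. All mice were adults, over 8 weeks old by the labels and mostly male, and had spent 14 days in a light-dark cycle before constant darkness, and SVE mice free-ran for a further 14 days. Vipr2-/- mice lacked VPAC2 by their labels and were exercised until they entrained, 6 to 9 days, and WT mice took 35 to 40 days. Time under SVE and genotype therefore cannot be told apart within the exercised groups. Mice that did not entrain, and Vipr2-/- nSVE mice without a rhythm, had been left out of the study. SVE mice were taken 2 h after the wheel opened, named hour 14, and nSVE mice at circadian hour 14. For WT SVE the series text also gives hour 24, so clock hour and exercise cannot be told apart there. For Vipr2-/- SVE it gives hour 14. Clock hour and genotype therefore cannot be told apart under SVE either. The same holds for the SVE part of the interaction and of the genotype difference averaged over conditions.

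VPAC2 is a receptor for vasoactive intestinal peptide that couples to the stimulatory G protein Gs. Gs switches on adenylyl cyclases, cAMP releases the catalytic subunits of PKA from the regulatory ones, and PKA phosphorylates CREB, which binds the cAMP response element (CRE) in promoters. Phosphodiesterases degrade cAMP, CRTC coactivators join CREB once SIKs no longer hold them in the cytoplasm, and Epac proteins answer to cAMP without PKA. In the SCN this pathway carries light, peptide and timing signals to genes such as Per1 and Per2, and SIK1 is itself induced through CREB.

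Promoter sequences show which of these genes carry CRE letters near their start. RefSeq promoters (GRCm38.p6, 250 bases before to 50 after the start) were found for 32 of the 38 genes, in 64 windows. Adcy6, Adcy8, Crem, Crtc2, Gnal and Sik1 were without an entry. The full CRE, TGACGTCA, stood in 2 of these 64 windows (3.12%), against 437 of 15553 windows of tested genes (2.81%) and 588 of all 32851 (1.79%). Both windows belong to Prkar1a and hold the same letters at overlapping positions. The shorter core, TGACG or CGTCA on its other strand, which the full CRE contains, stood in 19 of 64 windows (29.7%), against 28.9% of the windows of tested genes. Among 22 genes listed as CREB targets, 16 had an entry, and the full CRE stood in 6 of their 23 windows (26.1%). That list was made of known targets, so its share is a description. Where a gene had several windows, the one with the most cores is printed. Of the promoters below, Pde1a is the member that passed the test between genotypes, Prkar1a is the member with a full CRE, and Sst and Nr4a3 are targets that were lower in Vipr2-/- libraries. Capitals mark TGACG or CGTCA.
Pde1a, chr2:80038853-80039152, minus strand: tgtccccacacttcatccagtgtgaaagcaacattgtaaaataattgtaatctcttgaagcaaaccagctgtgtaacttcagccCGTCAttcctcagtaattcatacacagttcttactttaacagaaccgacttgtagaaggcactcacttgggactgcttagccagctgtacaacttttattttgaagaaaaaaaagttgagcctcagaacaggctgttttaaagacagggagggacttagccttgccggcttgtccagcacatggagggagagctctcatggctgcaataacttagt
Prkar1a, chr11:109650699-109650998, plus strand: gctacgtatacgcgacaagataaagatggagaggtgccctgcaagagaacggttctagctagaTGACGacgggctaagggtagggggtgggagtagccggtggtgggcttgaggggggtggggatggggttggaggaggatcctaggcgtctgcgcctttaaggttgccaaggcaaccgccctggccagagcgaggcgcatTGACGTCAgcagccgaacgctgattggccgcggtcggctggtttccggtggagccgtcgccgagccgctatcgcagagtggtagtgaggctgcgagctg
Sst, chr16:23890795-23891094, minus strand: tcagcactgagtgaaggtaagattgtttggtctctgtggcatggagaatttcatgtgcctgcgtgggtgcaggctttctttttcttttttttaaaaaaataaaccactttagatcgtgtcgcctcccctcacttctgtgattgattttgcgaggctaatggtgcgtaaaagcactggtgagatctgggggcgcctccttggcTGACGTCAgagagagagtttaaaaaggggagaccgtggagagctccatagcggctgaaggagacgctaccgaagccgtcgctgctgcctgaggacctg
Nr4a3, chr4:48045055-48045354, plus strand: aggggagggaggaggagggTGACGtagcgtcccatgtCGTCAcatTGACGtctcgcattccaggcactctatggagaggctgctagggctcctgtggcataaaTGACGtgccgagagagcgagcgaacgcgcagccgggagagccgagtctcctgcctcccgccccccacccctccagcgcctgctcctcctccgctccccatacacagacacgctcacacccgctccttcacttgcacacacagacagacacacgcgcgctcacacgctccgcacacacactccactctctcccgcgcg
In the printed windows Pde1a held 1 such core, Prkar1a 3, Sst 2 and Nr4a3 4, with overlapping cores of a full CRE counted on each strand. Pde1a had 4 windows, and only the printed one held a core. That window lies inside the gene (chr2:79834453-80129458, minus strand), away from its outermost annotated start. A match of letters is not a measured binding site.

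The libraries corresponded to 17709080 to 48794679 reads. The targeted transcript, Vipr2, averaged 176 ± 77.9 normalized counts in Vipr2-/- SVE, 178.3 ± 37.3 in Vipr2-/- nSVE, 8192 ± 1480 in WT SVE and 6656 ± 341 in WT nSVE libraries (SD, n = 3, 3, 4 and 4). The percentage of tested genes at 0 was 10.26 ± 6.17 in Vipr2-/- SVE, 14.54 ± 5.32 in Vipr2-/- nSVE, 3.21 ± 1.54 in WT SVE and 6.94 ± 1.66 in WT nSVE libraries (SD). Vipr2-/- SVE library 3 (16.32%) and Vipr2-/- nSVE library 3 (20.68%) had the most. The summed level of 12 SCN neuron markers was 92250 to 109000 in Vipr2-/- SVE and 105900 to 107700 in Vipr2-/- nSVE, against 140300 to 157100 in WT SVE and 127000 to 140900 in WT nSVE, and did not overlap between genotypes without Vipr2 itself. That of 8 astrocyte markers was 102000 to 120300 and 104300 to 121400 in the Vipr2-/- groups, against 85160 to 99460 and 84780 to 100400 in the WT groups. Single markers were less uniform than these sums. Under nSVE 3 of the 12 SCN markers were higher and 6 lower in Vipr2-/- libraries without overlap. Of the 8 astrocyte markers 1, Aldoc, was higher there. Under SVE 0 SCN markers were higher and 5 lower, and 4 astrocyte markers were higher and 0 lower. Of all tested genes 11.2% did not overlap under nSVE and 14.1% under SVE. None of the 20 SCN and astrocyte markers stood at 0 throughout a group. That of 8 markers of striatal neurons, cells rich in several of these genes, was 7328 to 10880 over both Vipr2-/- groups and 4791 to 6436 over both WT groups, with Tac1 at 0 in all 3 Vipr2-/- nSVE libraries. Without Penk it was 2455 to 2971 in Vipr2-/- SVE, 2595 to 3553 in Vipr2-/- nSVE, 2750 to 3179 in WT SVE and 2336 to 2517 in WT nSVE libraries. The part of cell makeup in the results below was not tested, and in bulk RNA fewer cells of a type and less RNA per cell cannot be told apart. WT nSVE library 2 stood apart in activity-induced genes, with Fos at 8106 normalized counts against 562.2 to 1326 in the other 3 libraries of its group and Egr1 at 20640 against 796.7 to 1808. The labels do not tell whether replicates were separate animals, and the p-values cover only the spread among the libraries sequenced.

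Transcripts of the pathway's trunk were abundant. Per kb of exon, averaged over the 14 libraries, Prkar1b stood at 8756 normalized counts, above 99.44% of the tested genes with a length, whose median was 88.94. Gnas, the Gs alpha subunit, followed at 8050 per kb, then the catalytic subunit Prkaca at 4588 and the regulatory subunit Prkar1a at 3189. Adcy2 (1206 per kb) and Adcy5 (946.8 per kb) led the cyclases, Sik3 (1068 per kb) the SIKs, Pde1b (768.6 per kb) the phosphodiesterases, and Crtc1 (642 per kb) the coactivators. The CREB family factors were low per kb, with Atf1 at 80.75, Creb1 at 50.6 and Crem at 26.32. Pde4c (5.224 per kb) and Pde1c (4.604 per kb) were the lowest of the 38. The order of Prkar1b and Gnas did not hold beyond their spread over libraries, 7976 to 10630 and 6505 to 9968 per kb. Adcy2 (1007 to 1435 per kb) and Prkacb (1071 to 1503 per kb), neighbours in the order, overlapped in the same way, whereas Prkaca (3816 to 5740 per kb) stayed apart from Prkar1a (2516 to 3670 per kb). Exons of 11 of the 38 genes overlap those of another annotated gene, over more than 20% of their length for Gnas (22.0%) and Adcy3 (22.1%), both with genes of the opposite strand. Whether the authors' counting used strand is not given in the sources used here, so values of these 11 could hold reads of their partners.

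**Figure D1:**
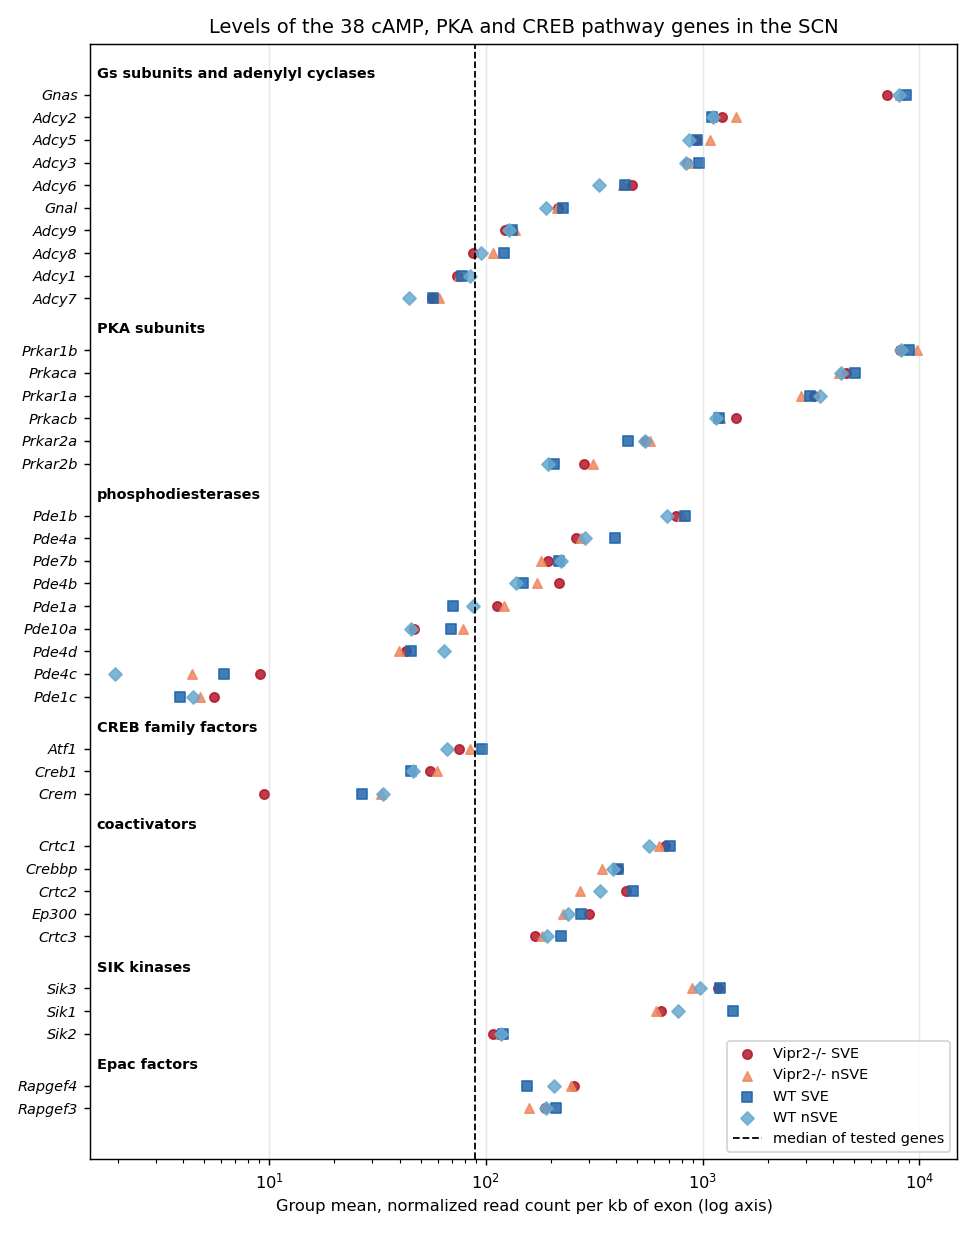
Level of each of the 38 genes in normalized counts per kb of exon (log axis), by class. Points are the means of the 4 groups, and the vertical line marks the median of the tested genes, 88.94 per kb. Prkar1b and Gnas lie highest, and Pde4c and Pde1c lowest.

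Across the 4 groups, most of these transcripts lay close together. Fits were made on log2(value + 1), and a call is an adjusted p under 0.05 over all 18175 genes by limma with Benjamini-Hochberg adjustment. Between genotypes under nSVE 0 of 38 members were called, against 0.611% of all tested genes. Under SVE 0 were called, against 0.176%. For SVE against nSVE, 0 were called in Vipr2-/- (background 0.116%) and 0 in WT mice (1.28%). The interaction, the difference between the genotypes in their SVE effect, gave 0 calls (0.022%). The genotype difference averaged over both conditions gave 1, Pde1a, against 1.18% of tested genes called in either direction and 0.363% called higher in Vipr2-/-.

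At an unadjusted p under 0.05 by limma, 9 members stood between genotypes under nSVE (23.7%, against 14.3% of tested genes) and 9 under SVE (23.7%, against 15%). There were 6 with SVE in Vipr2-/- mice (15.8%, against 13.8%), 6 with SVE in WT mice (15.8%, against 12.5%), 5 for the interaction (13.2%, against 10.3%) and 11 for the averaged difference (28.9%, against 17.8%). On the recovered reads edgeR called 0 members in each of the 6 comparisons. Its share of all tested genes was 0.435% between genotypes under nSVE, 0.121% under SVE, 0.033% with SVE in Vipr2-/-, 0.99% with SVE in WT, 0.033% for the interaction and 0.721% for the average. DESeq2 called more, among members as among all genes that it gave an adjusted p. Between genotypes it called 2 members under nSVE (Adcy2 and Prkar1b, background 2.87%) and 3 under SVE (Pde1a, Sik1 and Rapgef4, 5.37%). With SVE it called 1 in Vipr2-/- (Prkar1b, 2.23%) and 2 in WT mice (Pde1b and Sik1, 7.49%). It called 1 for the interaction (Prkar1b, 0.97%) and 4 for the average (Adcy2, Pde1a, Sik1 and Rapgef4, 4.57%).

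The median log2 fold change of the 38 was 0.04 between genotypes under nSVE, against -0.10 for all tested genes, and -0.07 under SVE, against -0.10. Of the 38, 20 were above 0 under nSVE (52.6%, against 40.7% of tested genes), 13 under SVE (34.2%, against 42.1%) and 17 on average (44.7%, against 37.5%). These contrasts shrank with each library's percentage of zeros in the fit. Above 0 were then 55.3% under nSVE (against 50.7%), 50% under SVE (50.8%) and 52.6% on average (52.3%). With SVE the members' median was -0.01 in Vipr2-/- mice, against 0.04 for all tested genes, and 0.12 in WT mice, against 0.03. In WT mice 27 of 38 (71.1%) were above 0 with SVE, against 52.8% of tested genes, and in Vipr2-/- mice 19 of 38 (50%), against 53.6%. Cell type markers moved with the WT exercise comparison. Of 8 oligodendrocyte markers 0 were above 0 (median -0.45) and 2, Mal and Mobp, were called lower by limma, and their summed level was 47660 to 71390 in WT SVE against 74410 to 100500 in WT nSVE libraries. Of 8 astrocyte markers 1 was above 0 (median -0.27) and 0 were called, with 5 at an unadjusted p under 0.05. Of 12 SCN neuron markers 7 were above 0 and 3 were called higher, Nms, Rgs16 and Six3. All 8 striatal neuron markers were above 0 (median 0.32), with 0 called and 1 at an unadjusted p under 0.05 by limma. Their summed level was 5658 to 6436 in WT SVE and 4791 to 5685 in WT nSVE libraries. Without Penk it was 2750 to 3179 against 2336 to 2517. The part of any of these markers in the members' values was not tested. The interaction's median was -0.15, against 0.01, with 16 members above 0 (42.1%, against 50.9%). The fitted change was under 0.5 on the log2 scale for 33 members between genotypes under nSVE, 31 under SVE, 33 with SVE in Vipr2-/- and 32 with SVE in WT. The 95% interval lay within 1 on either side of 0 for 30, 27, 32 and 30 members in the same order, so changes of over 1 remained possible for the others. The genotype effects under nSVE and SVE, estimated from separate libraries, had the same sign for 23 of 38 members, and the SVE effects in Vipr2-/- and WT for 20.

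**Figure D2:**
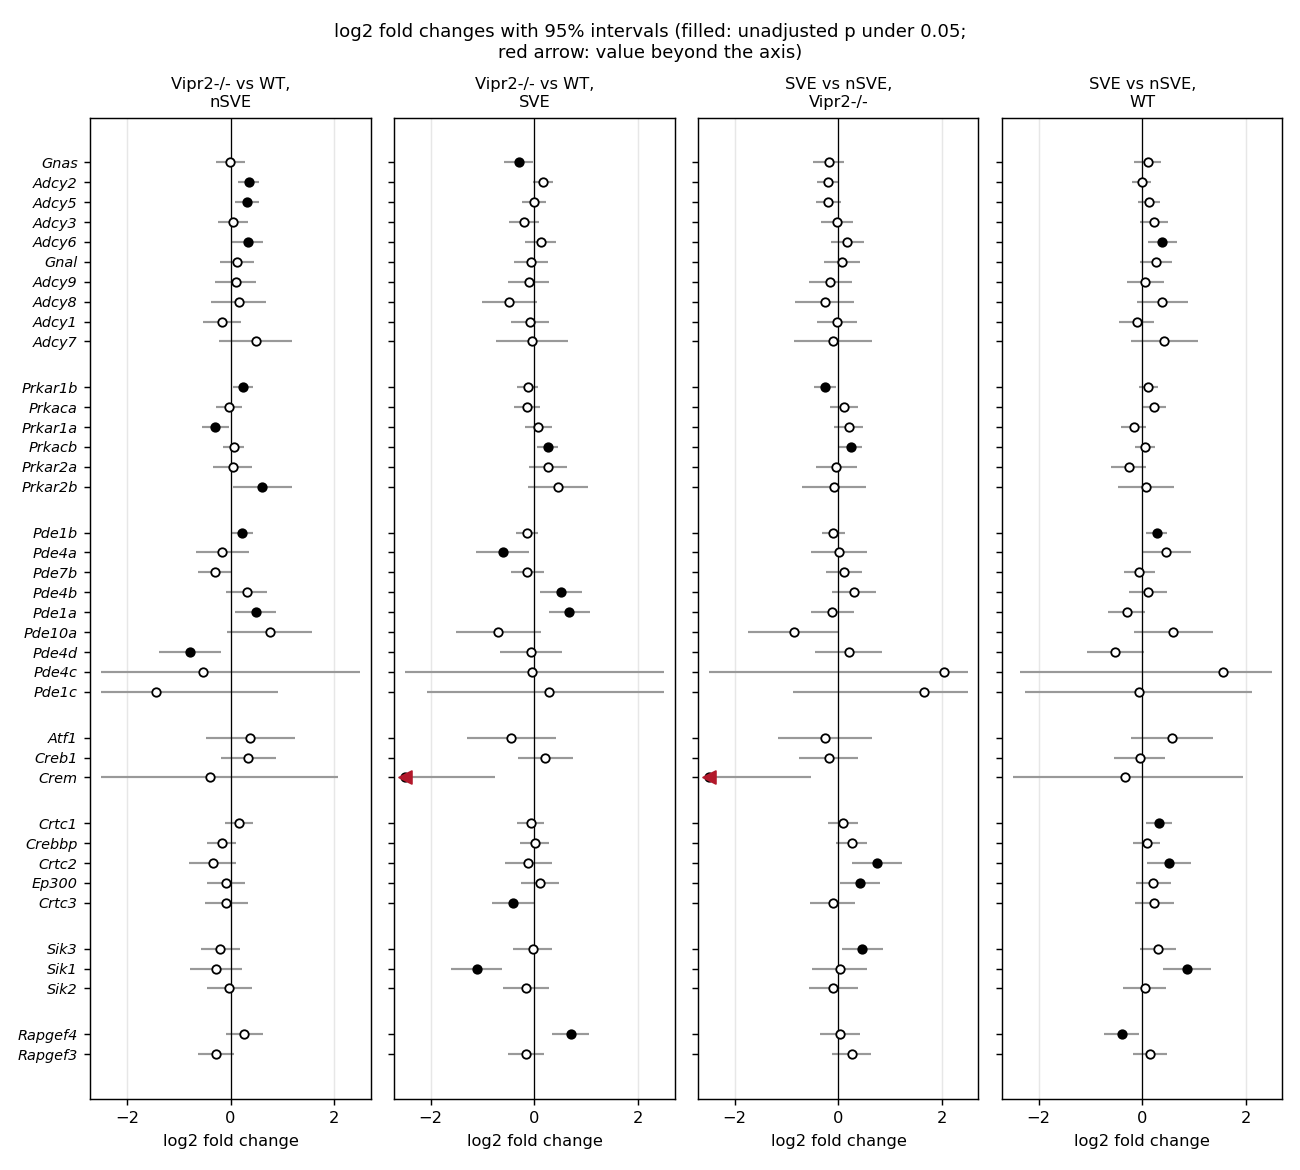
Fitted log2 fold change with 95% interval for each of the 38 genes in 4 comparisons (Vipr2-/- over WT, SVE over nSVE). Filled points have an unadjusted p under 0.05, a red arrow marks a value beyond the axis, intervals that pass the axis limits end there, and the widest belong to Crem, Pde4c and Pde1c. Most points lie within 0.5 of 0.

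Among the Gs subunits and cyclases, the clearest value was that of Adcy2, a cyclase that Gs and G protein beta-gamma subunits stimulate. Adcy2 had 5213, 5246 and 5156 normalized counts in Vipr2-/- SVE, 6044, 5886 and 6011 in Vipr2-/- nSVE, 4867, 4459, 4642 and 4682 in WT SVE, and 4543, 4653, 4242 and 5428 in WT nSVE libraries. In each condition every Vipr2-/- library lay above every WT library. Under nSVE the log2 fold change was 0.35 ± 0.09 (SE, limma adjusted p = 0.114), and averaged over conditions 0.25 ± 0.07 (adjusted p = 0.0702), both short of the threshold. The averaged difference passed without Vipr2-/- SVE library 2 (0.25, adjusted p = 0.0478) or without WT nSVE library 4 (0.29, adjusted p = 0.0428). Without Vipr2-/- SVE library 2 the Adcy2 change was nearly the same, and 1007 of all 18175 tested genes were called on average, against 215 with all libraries. The Vipr2-/- SVE libraries also lay below the Vipr2-/- nSVE libraries without overlap. Groups that do not overlap were found for 8 members between genotypes under nSVE (21.1%, against 11.2% of tested genes) and for 10 under SVE (26.3%, against 14.1%). With SVE they were 4 in Vipr2-/- (10.5%, against 9.99%) and 9 in WT mice (23.7%, against 14.7%).

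Adcy5, a cyclase inhibited by calcium, had 7307, 6743 and 9188 normalized counts in Vipr2-/- nSVE libraries, against 6838, 5731, 5703 and 6551 in WT nSVE libraries. The groups overlapped by 1 library of each (0.31, limma adjusted p = 0.223). Under SVE they were close, 6446 to 6897 in Vipr2-/- and 6632 to 6931 in WT libraries. The interaction was -0.33 (adjusted p = 0.48). Without Vipr2-/- nSVE library 3, which holds the value of 9188, the change under nSVE was 0.18 and the interaction -0.20. Adcy6, its calcium-inhibited relative, had 3270, 2855, 2727 and 2990 in WT SVE libraries, against 2201, 2196, 2237 and 2433 in WT nSVE libraries. Every WT SVE library was above every WT nSVE library, by 0.38 ± 0.13 (SE, limma adjusted p = 0.197), short of the threshold. In Vipr2-/- mice Adcy6 had 3116, 3550 and 2999 under SVE and 3212, 3398 and 2121 under nSVE, and the last, from the library with the most genes at 0, stood apart. Without that library Adcy6 passed between genotypes under nSVE (0.54, adjusted p = 0.0429) and for the average over conditions (0.33, adjusted p = 0.0337). Without Vipr2-/- nSVE library 2 the change under nSVE was 0.20, against 0.33 with all libraries.

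Gnas had 72770, 86350 and 77790 normalized counts in Vipr2-/- SVE libraries, against 90070, 106800, 97000 and 95480 in WT SVE libraries. The groups did not overlap, and the change was -0.30 ± 0.13 (SE, limma adjusted p = 0.302). Under nSVE it had 85220, 76420 and 111500 in Vipr2-/- libraries, against 91040, 88680, 92220 and 89300 in WT libraries, with the WT values inside the spread of the Vipr2-/- ones. The locus carries several imprinted transcripts, which the table counts as 1 gene. Of the remaining 6 genes of the class, Adcy8, a calcium-stimulated cyclase, ranged from 559.8 to 869.4 in Vipr2-/- SVE, below its WT SVE range of 885.5 to 1122. Gnal, the olfactory-type Gs subunit, and Adcy1, Adcy3, Adcy7 and Adcy9 overlapped between groups in all 4 pairwise comparisons.

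Of the PKA subunits, Prkar1b, a brain-enriched regulatory subunit, had 31270, 31530 and 30390 normalized counts in Vipr2-/- SVE, 34890, 36280 and 40510 in Vipr2-/- nSVE, 32790, 36030, 35590 and 31820 in WT SVE, and 30740, 33820, 30840 and 30570 in WT nSVE libraries. Every Vipr2-/- nSVE library was above every WT nSVE library, and every Vipr2-/- SVE library was below every WT SVE library. The changes were small, 0.24 ± 0.09 under nSVE (SE, limma adjusted p = 0.273) and -0.26 ± 0.10 with SVE in Vipr2-/- mice (adjusted p = 0.286). The interaction, -0.37 ± 0.13, did not pass by limma (adjusted p = 0.411) and did by DESeq2 (-0.37, adjusted p = 0.0424).

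Prkacb, a catalytic subunit, had 12520, 11740 and 13180 normalized counts in Vipr2-/- SVE libraries, against 10760, 11140, 10220 and 9747 in WT SVE libraries. These did not overlap (0.25, limma adjusted p = 0.247). Prkar1a, the widely expressed regulatory subunit whose promoter holds the full CRE shown above, had 12860, 13070 and 10870 in Vipr2-/- nSVE libraries, against 14700, 14240, 15440 and 15580 in WT nSVE libraries (-0.29, adjusted p = 0.298). Prkar2b, the type II regulatory subunit of neurons and fat, had 1133, 1609 and 682.8 in Vipr2-/- nSVE libraries, against 686.5, 780.9, 723.4 and 624 in WT nSVE libraries. The groups overlapped, with the lowest Vipr2-/- nSVE library inside the WT nSVE range (0.62, adjusted p = 0.319). Without Vipr2-/- nSVE library 2 that change was 0.33, and without library 3 it was 0.94. Averaged over conditions Prkar2b differed by 0.53 (adjusted p = 0.169) and passed without Vipr2-/- nSVE library 3 (0.70, adjusted p = 0.0432). Prkaca (9493 to 14280) and Prkar2a (2534 to 4285) overlapped between groups in all 4 pairwise comparisons.

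The 1 member called was a phosphodiesterase. Pde1a, which hydrolyses cyclic nucleotides when calcium and calmodulin bind, had 635.8, 723.2 and 666.4 normalized counts in Vipr2-/- SVE, 757.5, 738.5 and 698 in Vipr2-/- nSVE, 485.5, 436.2, 437.3 and 343.5 in WT SVE, and 600.3, 525.9, 451 and 520.6 in WT nSVE libraries. Each of the 6 Vipr2-/- libraries was above each of the 8 WT libraries. Averaged over conditions the log2 fold change was 0.58 ± 0.13 (SE, 95% interval 0.30 to 0.86, limma adjusted p = 0.0435). Within conditions it was 0.67 ± 0.18 under SVE (adjusted p = 0.15) and 0.49 ± 0.18 under nSVE (adjusted p = 0.263). The call held in 2 of 14 omissions of a library, without Vipr2-/- SVE library 2 and without Vipr2-/- nSVE library 3, and the adjusted p over the omissions ran from 0.0329 to 0.0957. In these 2 fits 1007 and 428 of all tested genes were called, against 215 with all libraries. The call ended with edgeR (adjusted p = 0.0619), with TMM scaling (0.0507), with a pseudocount of 10 (0.0517) and with each library's percentage of zeros as a covariate (0.628). The change itself stayed between 0.53 and 0.63 under all of these alternatives and omissions.

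The related Pde1b was at 4764, 4053 and 4231 normalized counts in Vipr2-/- nSVE libraries, without overlap with the WT nSVE libraries (0.23, limma adjusted p = 0.321). In WT mice it had 4389, 4059, 4634 and 4898 normalized counts in WT SVE libraries, against 4014, 3575, 3756 and 3511 in WT nSVE libraries, without overlap (0.27, limma adjusted p = 0.191). In Vipr2-/- mice it had 4185, 4248 and 3748 under SVE, a range that overlaps that under nSVE. The interaction was -0.37 (adjusted p = 0.431). Pde4d, a cAMP-specific enzyme, had 621.1, 557.7 and 254.3 in Vipr2-/- nSVE libraries, against 781.9, 842.1, 818.6 and 649.2 in WT nSVE libraries. These did not overlap, and the lowest value came from the library with the most genes at 0 (-0.79 ± 0.28 SE, adjusted p = 0.234). Without that library the change was -0.39. In the exercised groups Pde4d was at 497.4, 428.3 and 623.5 in Vipr2-/- and 579.6, 555.5, 398.3 and 640 in WT libraries. Those genotypes overlapped, and the WT SVE values lay below all WT nSVE values.

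Pde4a and Pde4b, of the same cAMP-specific family, lay on opposite sides of 0 under SVE. Pde4a had 2023, 2434 and 1563 normalized counts in Vipr2-/- SVE libraries, against 2785, 3025, 2733 and 3585 in WT SVE libraries (-0.61, limma adjusted p = 0.264). Pde4b had 2122, 1642 and 3160, against 1623, 1273, 1851 and 1554 (0.51, adjusted p = 0.235). Pde4a did not overlap between these groups, and Pde4b did. Pde4a in WT SVE libraries also lay above WT nSVE libraries (1927 to 2683), and Pde4b in Vipr2-/- nSVE libraries (1593 to 2027) above WT nSVE libraries (1328 to 1566). Without Vipr2-/- SVE library 2 Pde4b passed under SVE (0.73, adjusted p = 0.0308) and on average (0.52, adjusted p = 0.0245), against 0.41 on average with all libraries. Calls over all tested genes then also rose, to 1100 under SVE and 1007 on average. Without Vipr2-/- SVE library 3 the change under SVE was 0.26 (adjusted p = 0.732). With each library's percentage of zeros in the fit it was 0.09 under SVE and -0.03 on average. Pde10a, which is rich in striatal neurons, had 242, 775.1 and 789.3 in Vipr2-/- SVE, 995.5, 628.2 and 1414 in Vipr2-/- nSVE, 677.2, 635.4, 1170 and 1072 in WT SVE, and 457.7, 661.3, 719.9 and 477.7 in WT nSVE libraries. Its groups overlapped in all 4 pairwise comparisons (interaction -1.45 ± 0.55 SE, adjusted p = 0.429). Without Vipr2-/- SVE library 1, which holds the value of 242, the interaction was -0.89. Pde7b was at 2177 to 2300 in Vipr2-/- nSVE, below 2652 to 2847 in WT nSVE libraries. Pde4c was at 0 in 5 of 14 libraries and Pde1c between 1.684 and 248.2, too sparse for a level to be set.

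**Figure D3:**
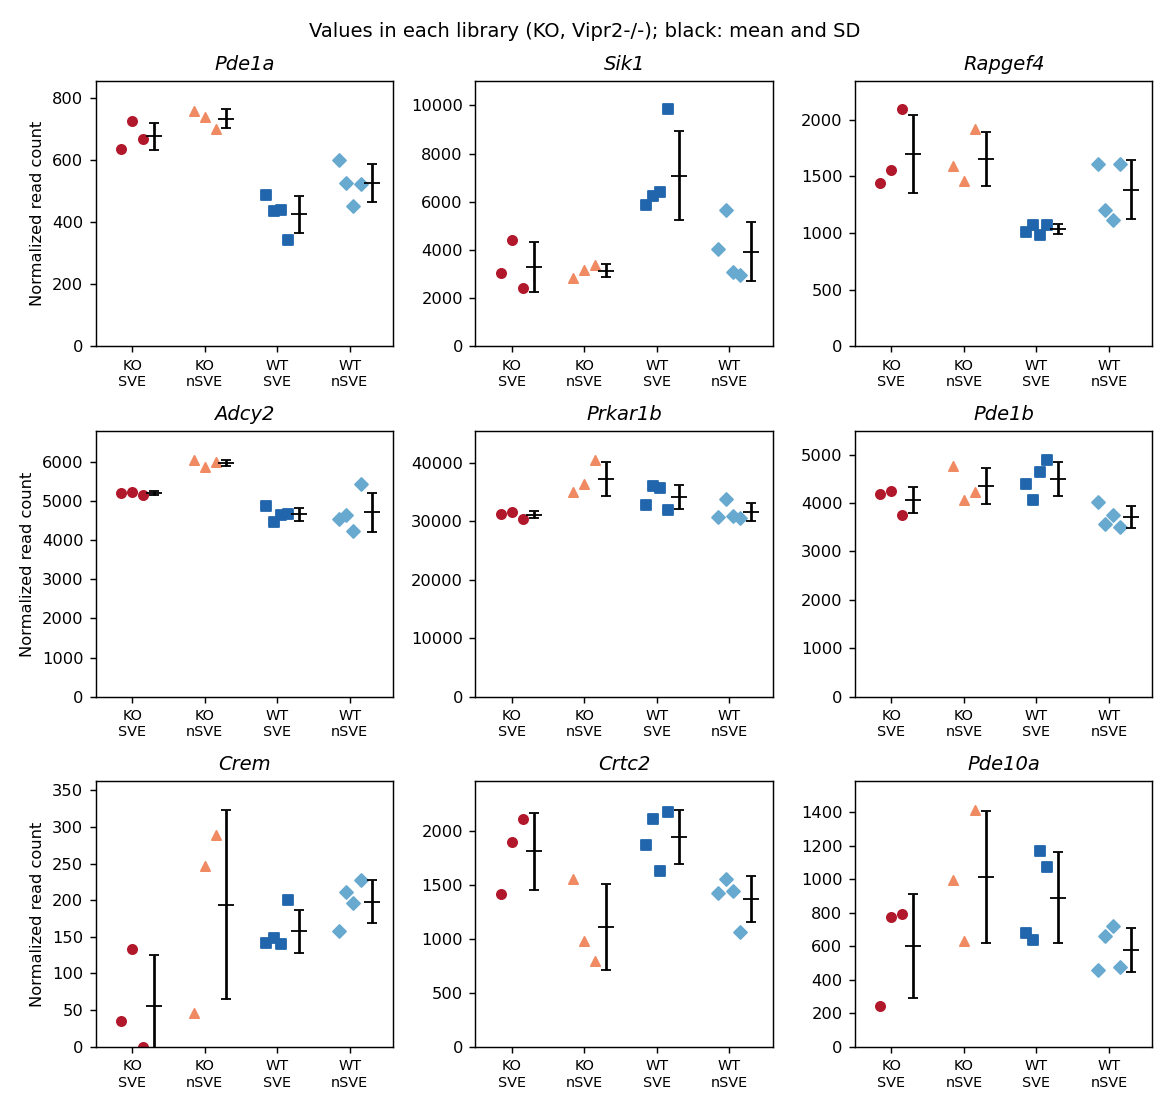
Normalized counts in each library (points) with group mean and SD (bars) for 9 members, Vipr2-/- SVE, Vipr2-/- nSVE, WT SVE and WT nSVE from left to right. Each Vipr2-/- library lies above each WT library for Pde1a, and the Sik1 values of the 4 WT SVE libraries lie above those of the other groups.

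The CREB family factors were the lowest class per kb. Crem, whose ICER isoforms repress CRE-driven transcription, had 34.79, 133.4 and 0 normalized counts in Vipr2-/- SVE, 46.44, 246.7 and 288.8 in Vipr2-/- nSVE, 141.6, 148.1, 139.8 and 200.8 in WT SVE, and 158, 211, 196.1 and 226.9 in WT nSVE libraries. All 3 Vipr2-/- SVE values lay below the WT SVE range, and the 0 came from the Vipr2-/- SVE library with the most genes at 0, where 3 reads would have given 4.29 normalized counts. The fitted change under SVE, -3.22 ± 1.16 (SE, limma adjusted p = 0.229), rests on that 0, and without that library it was -1.18. Without Vipr2-/- SVE library 2 it was -4.71 (adjusted p = 0.0218), in a fit that called 1100 of all tested genes. With SVE in Vipr2-/- mice the change was -3.16 (adjusted p = 0.296). Both changes were smaller by edgeR and DESeq2. They were -1.48 and -1.48 between genotypes under SVE, and -1.76 and -1.79 with SVE in Vipr2-/- mice. Atf1, a close relative of CREB, had 125.7, 344.2 and 220.2 in Vipr2-/- SVE, 200.3, 304.9 and 267.7 in Vipr2-/- nSVE, 238.3, 288.9, 400.7 and 253.8 in WT SVE, and 114.4, 234.4, 196.1 and 269.8 in WT nSVE libraries, and overlapped throughout. Creb1 itself ranged from 482.3 to 1169 over the 14 libraries, also with overlap in each comparison.

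Among the coactivators, Crtc1 and Crtc2, the partners of CREB that SIKs phosphorylate, were above the nSVE range in every exercised WT library. Crtc1 had 7143, 8393, 7124 and 8909 normalized counts in WT SVE libraries, against 6933, 6532, 5910 and 5867 in WT nSVE libraries (0.32 ± 0.12 SE, limma adjusted p = 0.236). Crtc2 had 1872, 2110, 1627 and 2180, against 1424, 1560, 1440 and 1061 (0.51 ± 0.20 SE, adjusted p = 0.27). Neither passed the threshold. In Vipr2-/- mice Crtc1 had 6940, 9055 and 6581 under SVE, against 6988, 7806 and 6323 under nSVE. Crtc2 there had 1416, 1902 and 2115 under SVE, against 1559, 985.2 and 793.1 under nSVE. Both overlapped, and Crtc2 had a change of 0.74 ± 0.23 (SE, adjusted p = 0.215), which passed without Vipr2-/- nSVE library 1 (1.01, adjusted p = 0.036). Crtc3 ranged from 1340 to 2388 and the acetyltransferases Crebbp and Ep300 from 3797 to 6348 and from 2393 to 5234, with overlap between groups in all 4 pairwise comparisons.

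Sik1, the SIK that CREB induces and that restrains CRTC coactivators, came closest to a call within conditions. It had 3029, 4429 and 2428 normalized counts in Vipr2-/- SVE, 2853, 3191 and 3379 in Vipr2-/- nSVE, 5880, 6220, 6417 and 9826 in WT SVE, and 4047, 5645, 3099 and 2951 in WT nSVE libraries. The 4 WT SVE libraries lay above all others, and the Vipr2-/- values under SVE and nSVE overlapped. Under SVE the genotype difference was -1.12 ± 0.23 (SE, limma adjusted p = 0.0828), and in WT mice the exercise difference was 0.87 ± 0.22 (adjusted p = 0.0655). Averaged over conditions the genotype difference was -0.70 ± 0.17 (adjusted p = 0.0528). None passed, nor did the interaction of -0.84 ± 0.33 (adjusted p = 0.432), so a difference in the exercise effect between genotypes was not shown.

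These Sik1 values depend on single libraries. Without Vipr2-/- SVE library 2, the highest of its group, the genotype difference under SVE was -1.35 (limma adjusted p = 0.00751). Without that library 1100 of the 18175 tested genes were called under SVE and 1007 on average, against 32 and 215 with all libraries. Over the 7 omissions the adjusted p ran from 0.00751 to 0.441. Without WT nSVE library 2, the one with high Fos and Egr1 and the highest Sik1 of its group, the exercise difference in WT mice was 1.06 (adjusted p = 0.0421), and over its 8 omissions the adjusted p ran from 0.0421 to 0.243. The averaged difference passed without Vipr2-/- SVE library 2 (-0.82, adjusted p = 0.0116) and without Vipr2-/- nSVE library 3 (-0.73, adjusted p = 0.0466). WT SVE library 4, the highest for Sik1, was also the highest of its group for 13 of 22 CREB targets. The part of that in the Sik1 value was not tested.

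Sik3, the most abundant SIK per kb, had 10720, 12070, 10500 and 11700 normalized counts in WT SVE libraries, against 8445, 9993, 8743 and 9291 in WT nSVE libraries. In Vipr2-/- mice it had 10840, 11050 and 10950 under SVE, against 9955, 5064 and 9944 under nSVE. In each genotype every SVE library was above every nSVE library, and in Vipr2-/- mice the change was 0.46 ± 0.19 (SE, limma adjusted p = 0.308). Without Vipr2-/- nSVE library 2, which holds the value of 5064, it was 0.14. Sik2 ranged from 805.8 to 1468 and overlapped in all 4 pairwise comparisons.

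Rapgef4 encodes Epac2, the neuronal cAMP-activated exchange factor for Rap. It had 1443, 1556 and 2091 normalized counts in Vipr2-/- SVE, 1591, 1456 and 1916 in Vipr2-/- nSVE, 1014, 1070, 981.8 and 1072 in WT SVE, and 1608, 1200, 1115 and 1607 in WT nSVE libraries. The 4 WT SVE libraries lay below all others. The genotype difference was 0.70 ± 0.17 under SVE (SE, limma adjusted p = 0.13) and 0.48 ± 0.12 averaged over conditions (adjusted p = 0.0648), and the exercise difference in WT mice was -0.40 ± 0.16 (adjusted p = 0.279). Without Vipr2-/- SVE library 2 the difference under SVE passed (0.75, adjusted p = 0.0372), as did the averaged one (0.51, adjusted p = 0.0361). Those fits called 1100 and 1007 of all tested genes. The difference under SVE was 0.54 (adjusted p = 0.526) without Vipr2-/- SVE library 3. With each library's percentage of zeros in the fit it was 0.43 (adjusted p = 0.703), the averaged one 0.21 (adjusted p = 0.821) and the exercise difference in WT mice -0.26. Rapgef3, which encodes Epac1, ranged from 818.4 to 1628 with overlap in all 4 pairwise comparisons.

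**Figure D4:**
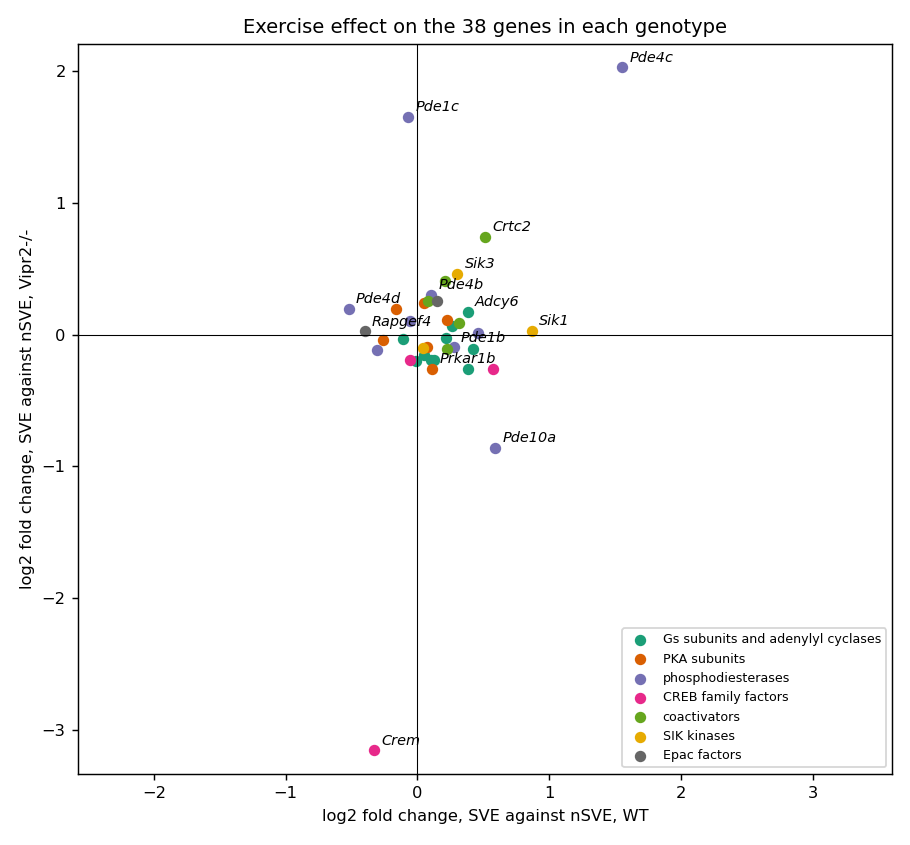
SVE effect (log2 fold change, SVE over nSVE) of each of the 38 genes in Vipr2-/- mice (vertical axis) against that in WT mice (horizontal axis). Of the 38 points, 14 are above 0 in both genotypes and 6 below 0 in both. Sik1 lies at 0.87 on the WT axis and near 0 on the Vipr2-/- axis. Crem and the sparse genes Pde4c and Pde1c lie farthest out.

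Around these genes, other parts of the pathway held few calls by limma. DESeq2 called more, as over all genes. Among them were Akap11 between genotypes under SVE, Pkib with SVE in WT mice, Pde8b on average and Adora2b between genotypes under nSVE. Of 15 PKA inhibitors and anchoring proteins 14 were tested and 1 was called. This was Pkia, which encodes an inhibitor that binds the free catalytic subunits of PKA, higher in Vipr2-/- mice on average (0.55 ± 0.12 SE, limma adjusted p = 0.0333). Pkia had 2651, 1641 and 1900 normalized counts in Vipr2-/- SVE, 2141, 2326 and 1990 in Vipr2-/- nSVE, 1303, 1081, 1608 and 1147 in WT SVE, and 1500, 1593, 1581 and 1689 in WT nSVE libraries. Each Vipr2-/- group lay above the WT group of its condition. The call held without library 2 of Vipr2-/- SVE, library 1 or 3 of Vipr2-/- nSVE or library 3 of WT SVE, ended in the other 10 of 14 omissions (adjusted p up to 0.081) and ended with no filter on low values (0.0547) and with the percentage of zeros in the fit (0.714).

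Of 9 other phosphodiesterases 1 was called. Pde5a, which degrades cyclic GMP rather than cAMP, had 86.19, 72.24 and 80.08 normalized counts in Vipr2-/- SVE, 24.63, 29.63, 24.38 and 28.2 in WT SVE, and 32.69, 13.06, 11.74 and 73.11 in WT nSVE libraries, and was at 0 in all 3 Vipr2-/- nSVE libraries. Against a floor of 3 reads over that group, the Pde5a mean was at least 27.5-fold higher in WT nSVE and 67-fold higher in Vipr2-/- SVE. These bounds cover counting error only, not the spread between libraries. In the Vipr2-/- nSVE libraries 11.19 to 20.68% of tested genes stood at 0. The limma changes were -4.69 between genotypes under nSVE (adjusted p = 0.0191) and 6.33 with SVE in Vipr2-/- (adjusted p = 0.0124). The endothelial marker Kdr was also at 0 in all 3 Vipr2-/- nSVE libraries. The genotype call ended without WT nSVE library 1 (adjusted p = 0.0618) or 4 (0.067), and the exercise call without Vipr2-/- SVE library 1 (0.0637). The genotype call also ended with a pseudocount of 10 (0.129), no filter (0.0523), a filter of 50 (0.0644), only the groups compared (0.105) and the percentage of zeros in the fit (0.147). The exercise call also ended with a pseudocount of 10 (0.0572), no filter (0.0576), a filter of 50 (0.0643), edgeR (0.0755) and only the groups compared (0.39). Of 13 other G protein subunits and cyclases 12 were tested and 0 were called in any of the 6 comparisons by limma or edgeR, with up to 6 of 12 (50%) at an unadjusted p under 0.05, between genotypes under SVE, where the background was 15%. Of these 6, 2 were higher and 4 lower in Vipr2-/- mice. DESeq2 called 2 there, Gnao1 and Gnb2, and 1 on average, Gnb2.

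Of 20 Gs-coupled receptors and their ligands 18 were tested. Drd5, a dopamine receptor that couples to Gs, was higher in Vipr2-/- mice on average (1.00 ± 0.23 SE, limma adjusted p = 0.0492), with 470.5 to 651.6 normalized counts in Vipr2-/- SVE and 406.3 to 900.9 in Vipr2-/- nSVE, against 182.8 to 307 in WT SVE and 197.1 to 383.2 in WT nSVE libraries. That call held without library 2 of Vipr2-/- SVE or library 1 or 2 of Vipr2-/- nSVE and ended in the other 11 of 14 omissions (adjusted p up to 0.123), with edgeR (0.0563), TMM scaling (0.0555) and no filter (0.0698) and with the percentage of zeros in the fit (0.763). Vip, the ligand, was lower on average, with 2428 to 3977 in Vipr2-/- SVE and 3772 to 5027 in Vipr2-/- nSVE, against 4687 to 6594 in WT SVE and 7196 to 9848 in WT nSVE libraries (-0.89 ± 0.12 SE, adjusted p = 0.00129). The averaged Vip call held in all 14 omissions and ended with each library's percentage of zeros in the fit (-0.74, adjusted p = 0.338). Under nSVE its call (-0.92, adjusted p = 0.0191) ended without WT nSVE library 2 (0.0661) or 3 (0.0757), with only the groups compared (0.07) and with the percentage of zeros in the fit (0.264).

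Genes known as CREB targets were mostly lower in Vipr2-/- libraries by their fitted values, and few passed by limma. The median log2 fold change of the 22 was -0.995 averaged over conditions, against -0.12 for all tested genes, and 2 of 22 were above 0, against 37.5% of tested genes. Single WT libraries stood apart on this list. WT nSVE library 2 was the highest of its group for 15 of the 22 targets, with a median of 2930 normalized counts against 532.6 to 784.1 in the other 3, and WT SVE library 4 for 13, with a median of 1466 against 874.2 to 1111. Without WT nSVE library 2 the median change was -0.58, with 3 of 22 above 0, and under nSVE alone it was -0.27, against -0.73 with all libraries. With each library's percentage of zeros in the fit the averaged median was -0.38, with 6 of 22 above 0, against 0.02 and 52.3% for all tested genes. Called on average by limma were 4 of 22, against 1.18% of tested genes: Sst (-1.39, limma adjusted p = 0.000158), Vgf (-1.25, adjusted p = 4.81e-05) and Nr4a3 (-1.37, adjusted p = 0.0392) fell, and Penk (0.94, adjusted p = 0.000158) rose. On average edgeR called 3, Vgf, Sst and Penk (background 0.721%). DESeq2 called 7, these 4 with Fosb, Nr4a1 and Scg2 (background 4.57%). Within conditions DESeq2 called 5 under nSVE (2.87%) and 5 under SVE (5.37%). Nr4a3, an orphan nuclear receptor of the immediate-early class, had 537.7, 1014 and 401.8 normalized counts in Vipr2-/- SVE, 330.9, 631.2 and 585.2 in Vipr2-/- nSVE, 1262, 1528, 1251 and 3769 in WT SVE, and 996.2, 2264, 950.1 and 805.5 in WT nSVE libraries. In each condition every Vipr2-/- library lay below every WT library. The Nr4a3 call held without library 2 of Vipr2-/- SVE, library 2 or 3 of Vipr2-/- nSVE, library 3 of WT SVE or library 4 of WT nSVE, and ended in the other 9 of 14 omissions (adjusted p up to 0.104), with edgeR (0.0563), with no filter (0.0707) and with the percentage of zeros in the fit (0.723). With the percentage of zeros the averaged Penk call also ended (0.104), while Sst (0.0346) and Vgf (0.00763) still passed. Sst and Vgf encode secreted peptides of SCN neurons, and Penk an enkephalin precursor that is also on the striatal marker list. The lower sum of SCN neuron markers and the higher sum of astrocyte markers stood in the same Vipr2-/- libraries. Under nSVE, however, 5 of the 12 SCN markers and 5 of the 8 astrocyte markers were above 0. Scg2, the most abundant of the SCN markers, is itself on the CREB target list.

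With exercise, 0 targets passed in Vipr2-/- mice by limma, edgeR or DESeq2, where 3 had an unadjusted p under 0.05 by limma. In WT mice 2 passed by limma and edgeR, Npas4 and Per2, and 3 by DESeq2, these 2 and Pcsk1. Npas4, an activity-induced transcription factor, had 1081, 645.2, 659.1 and 1377 normalized counts in WT SVE libraries, against 382.3, 413.2, 256 and 167.7 in WT nSVE libraries (1.63 ± 0.34 SE, limma adjusted p = 0.0302). The clock gene Per2 had 1375, 2452, 980.2 and 1920 in WT SVE libraries, against 4778, 3692, 3996 and 4124 in WT nSVE libraries (-1.38 ± 0.23 SE, adjusted p = 0.0135). Neither overlapped. The Npas4 call held without library 2 of WT SVE or library 2 of WT nSVE and ended in the other 6 of 8 omissions (adjusted p up to 0.144) and with the percentage of zeros in the fit (0.0977), and the Per2 call ended without library 1 of WT SVE (0.0566) or of WT nSVE (0.0635). In Vipr2-/- mice Npas4 had 661.9, 758.1 and 328.9 under SVE, against 346.8, 260.5 and 295.5 under nSVE, and these overlapped. Per2 there had 2317, 2251 and 1590 under SVE, against 1889, 1730 and 2802 under nSVE. For the interaction 0 targets passed by limma, with 2 at an unadjusted p under 0.05, and 0 by edgeR, while DESeq2 called 1, Pcsk1, so a difference between the genotypes in the exercise effect on Npas4 or Per2 was not shown.

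**Figure D5:**
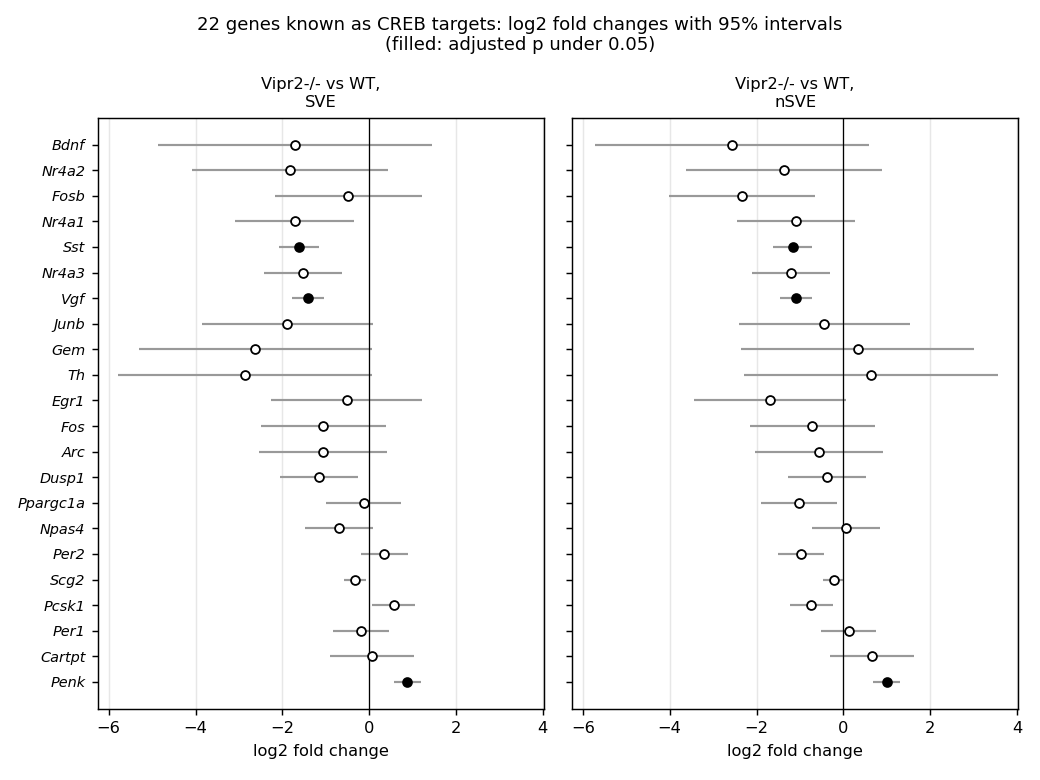
Log2 fold change of 22 CREB target genes (points) between Vipr2-/- and WT libraries under SVE and under nSVE, with 95% intervals (lines) and filled points for called genes. Sst and Vgf lie below 0 and Penk above 0 in both conditions.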

How the data were processed

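SCN tissue was cut by laser from 20 µm sections stained with cresyl violet, per the labels' protocols, and libraries for paired-end sequencing were made from total RNA. The submitters' processing notes name Trimmomatic, HISAT2, StringTie and DESeq2. The design text names GRCm38 and the notes GRCm39. Of 55401 gene identifiers 54349 are in GENCODE M21 (GRCm38), and each has its coordinates there. The deposited signal values are counts that the authors had divided by 1 size factor for each library. Multiplied back, 100% came out as whole reads, to within 0.001 reads.

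The scale was log2(value + 1). Genes at 10 or more in at least 3 libraries were fitted by limma 3.58.1 (R 4.3.3) with a mean-variance trend and 1 mean per group. Adjustment was by Benjamini-Hochberg within each of 6 comparisons. Alternatives were TMM scaling, pseudocounts (0.5 or 10), filters (none, or at least 50 in 3 libraries), edgeR 4.0.16 quasi-likelihood and DESeq2 1.42.0 on recovered reads. Others were only the groups compared, a replicate block, each library's percentage of zeros as a covariate, and omission of each library. Omission of both libraries with most genes at 0 was added after seeing the data, as was omission of the 2 WT libraries highest in CREB targets. Folds are on the log2(value + 1) scale, which can understate the change of low genes, as for Pde5a between genotypes under nSVE (-4.69, against -8.10 by edgeR). It can also overstate the change where 1 library of a group stands at 0, as for Crem. Floors of 3 reads cover counting error only.

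The members and the lists were chosen with earlier results of these data known. Named with values per library were members called, the 3 smallest p in each comparison, and the member of each class with the highest level per kb. Prkacb, Prkar1a, Prkar2b, Pde4a, Pde4b and other members with ranges were added after their values were seen. Of the other lists, called genes were named. On simulated data for genotype under nSVE, 50 genes changed at each size, limma recovered 10% at 1.5-fold, 38% at 2-fold, 72% at 4-fold and 86% at 8-fold, of 17478 genes in the fit. No pair of libraries in a group agreed within sampling noise.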

Additional observations from a re-analysis of the deposited data

Results flagged for a closer look

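In the WT groups of 4 libraries, 3 values lay far from the other 3 by Dixon's criterion, among 76 member and group combinations examined, of which chance would flag about 1 in 20. Prkar1b was at 33820 normalized counts in WT nSVE library 2, with the next at 30840. Crem was at 200.8 in WT SVE library 4, with the next at 148.1. Sik1 was at 9826 in that same library, with the next at 6417.

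Prkar1b also differed in direction between conditions. Each Vipr2-/- library was above each WT library under nSVE and below each WT library under SVE. The interaction was -0.37 and did not pass by limma (adjusted p = 0.411), while DESeq2 called it (adjusted p = 0.0424).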

How the results depend on the processing

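DESeq2 called 2 members between genotypes under nSVE, 3 under SVE, 1 with SVE in Vipr2-/-, 2 with SVE in WT, 1 for the interaction and 4 for the average, against 0, 0, 0, 0, 0 and 1 by limma. With SVE in WT mice, a pseudocount of 10 gave 1, Sik1 (adjusted p = 0.0496), and a fit of only the groups compared gave 5 (Adcy6, Pde4a, Crtc2, Sik1 and Sik3). For the average, edgeR, the replicate block and the share of genes at 0 as covariate each gave 0. TMM scaling gave 1, Sik1 (adjusted p = 0.0496), in place of Pde1a, and so did a pseudocount of 10 (0.0425). Without both libraries with most genes at 0, chosen after seeing the data, 1 was called between genotypes under nSVE (Adcy6), 2 with SVE in WT (Adcy6 and Sik1) and 2 on average (Adcy6 and Pde1a). Over all tested genes that fit called 232, 739 and 263 in the same order. Without WT nSVE library 2 and WT SVE library 4, also chosen after seeing the data, 0 were called on average (Pde1a adjusted p = 0.134), and the Npas4 (0.185), Per2 (0.109) and Nr4a3 (0.0736) calls ended. Over omissions of a library the counts ran from 0 to 1 between genotypes under nSVE, 0 to 4 under SVE, 0 to 1 with SVE in each genotype, 0 to 0 for the interaction and 0 to 5 on average. The 4 and the 5 came without Vipr2-/- SVE library 2. Calls over all 18175 tested genes were then 1100 under SVE and 1007 on average, against 32 and 215 with all libraries. Without Vipr2-/- nSVE library 3 they were 428 on average. Without Vipr2-/- nSVE library 1 they were 177 with SVE in Vipr2-/-, against 21. The averaged Pde4b change reversed to -0.0261 with the covariate (adjusted p = 0.976). For the 64 single-gene results, 1198 alternative values kept sign and side of the threshold, 119 lost a call, 37 gained it and 1 reversed. The causes were not tested.

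The replicate numbers did not settle whether libraries were paired. Residuals of same-numbered libraries correlated weakly, between -0.0536 and 0.117 (19 pairs). Yet for 9 of 14 libraries the best partner in another group had the same number. With the replicate block the Pde1a difference on average was 0.53 (adjusted p = 0.134), Pkia was 0.54 (0.101), Drd5 1.00 (0.124), Nr4a3 -1.26 (0.0783), and under nSVE Sst was -1.16 (0.075), while the Pde5a calls also ended (0.0863 and 0.0628). Over all genes, the main counts of 111, 32, 21, 233, 4 and 215 calls in the 6 comparisons were 518, 484, 394, 727, 175 and 825 by DESeq2, 79, 22, 6, 180, 6 and 131 by edgeR, and 16, 6, 8, 75, 7 and 12 with the covariate. The block gave 49, 17, 4, 137, 0 and 69, and only the groups compared gave 53, 13, 0 and 1201 in the 4 comparisons it allows. No filter gave 78, 35, 6, 158, 4 and 139, and a filter of 50 gave 6 with SVE in Vipr2-/-, where a pseudocount of 10 gave 5. With 3 or 4 libraries a group, members' median 95% interval reached 0.371, 0.371, 0.397 and 0.344 on either side in the 4 pairwise comparisons (log2). Changes smaller than that could not be shown for most members. These intervals are not adjusted for the number of genes, and larger changes also went uncalled. Under SVE, Sik1 (-1.12, limma adjusted p = 0.0828) and Rapgef4 (0.70, limma adjusted p = 0.13) did not pass. On simulated data limma recovered 38% of genes changed 2-fold. Pde4c and Pde1c were too sparse for a firm value. Crem had 139.8 to 226.9 normalized counts in WT libraries but 0 to 288.8 in Vipr2-/- libraries, where no firm value could be set.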
